A study of Mus musculus with 6 samples.

Results

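The matrix proteases and their inhibitors were taken as every gene whose symbol is Mmp, Timp, Adam or Adamts followed by a number, with a closing a or b allowed for Mmp and Adam. The rule used names alone and found 79 genes among the 41128 features of the tables: 23 Mmp, 4 Timp, 33 Adam and 19 Adamts genes. They were measured by poly-A RNA-seq in mouse lenses at E15.5. The first group was the β1-integrin conditional knockout (cKO), genotype beta1 Flox/Flox MLR10 Cre+ on a mixed strain background, with 3 libraries of 30 pooled lenses each. The other was wild type C57Bl/6, with 3 libraries of 75 pooled lenses each. MLR10 is a Cre line driven by a modified αA-crystallin promoter, active in lens epithelium and lens fibres, so that cells of other lineages dissected with the lens keep the gene. The wild-type animals carried no floxed allele and no Cre, and their records are labelled as duplicates of samples first placed in another series. Strain, Cre, floxed allele, pool size and source series therefore differ together with Itgb1 genotype and cannot be told apart from it.

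Matrix metalloproteinases (MMPs) are zinc endopeptidases that cut collagens, laminins and other matrix and surface proteins, and TIMPs are the secreted proteins that block their active sites. ADAMs are membrane-anchored relatives that mostly release the outer parts of surface proteins, such as Notch, N-cadherin and growth factor precursors. ADAMTS enzymes are secreted, carry thrombospondin repeats and act on proteoglycans, procollagens and microfibrils. Integrins with the β1 chain are the main receptors by which lens cells hold their capsule, a thick basement membrane, and the lens of the embryo is also wrapped in a capillary net that later regresses.

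Libraries held 20036554 to 28095318 gene reads in the cKO group and 10023049 to 11531139 in wild type, so low values were less precise in wild type. Itgb1, which encodes the β1 chain, stood at 258 ± 19.8 CPM (SD, n = 3; reads scaled to the library total) in cKO lenses and at 425 ± 23.0 CPM in wild type, a log2 difference of -0.72. All 12 lens markers checked were present in the libraries, with 1 higher and 3 lower in the cKO group. Markers of cells next to the lens moved with the groups. Over all tested genes 20.9% were called higher and 15.9% lower. Of 15 endothelial genes tested, 12 were higher in cKO lenses and 0 lower, with a summed level of 254 to 302 CPM against 159 to 193. All 8 tested of 12 macrophage genes were higher, with sums of 25.4 to 35.1 CPM against 9.80 to 13.3. Of 6 pericyte genes, 4 were higher and 1 lower (143 to 167 against 102 to 130 CPM). Of 10 genes of the mesenchyme around the eye, 5 were tested and 4 were higher (34.0 to 53.2 against 17.4 to 21.04 CPM), while Foxc2 had 0 reads in every library. The neutrophil list gave 0 calls of 3 tested genes, the retina and pigment epithelium list 0 of 2, and the erythroid list 1 higher of 2. The part of these cells in the protease values was not tested, and in these pools a change in the number of cells of a type cannot be told apart from a change in RNA per cell.

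Of the 79 genes, 28 passed the filter of at least 1 CPM in at least 3 libraries: 6 Mmp, 3 Timp, 10 Adam and 9 Adamts genes. Of these 28, 6 were higher and 4 lower in cKO lenses by limma at a Benjamini-Hochberg adjusted p under 0.05, adjusted over all 11941 genes that passed. Over all tested genes 20.9% were called higher, 15.9% lower and 36.9% in either direction, and the members' share of 35.7% lay beside that background. The values of the groups did not overlap for 14 of the 28 members, or 50.0%, against 48.1% of all tested genes. The median log2 difference, on the scale of log2(CPM + 1), was 0.13 over the 28 members and 0.03 over all tested genes. Both shares were close to those of all genes, so the protease and inhibitor genes as 1 set were not set apart from the rest by the number of calls. By family, the Mmp genes had 4 higher and 0 lower of 6, the Timp genes 0 and 0 of 3, the Adam genes 1 and 2 of 10, and the Adamts genes 1 and 2 of 9.

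**Figure D1:**
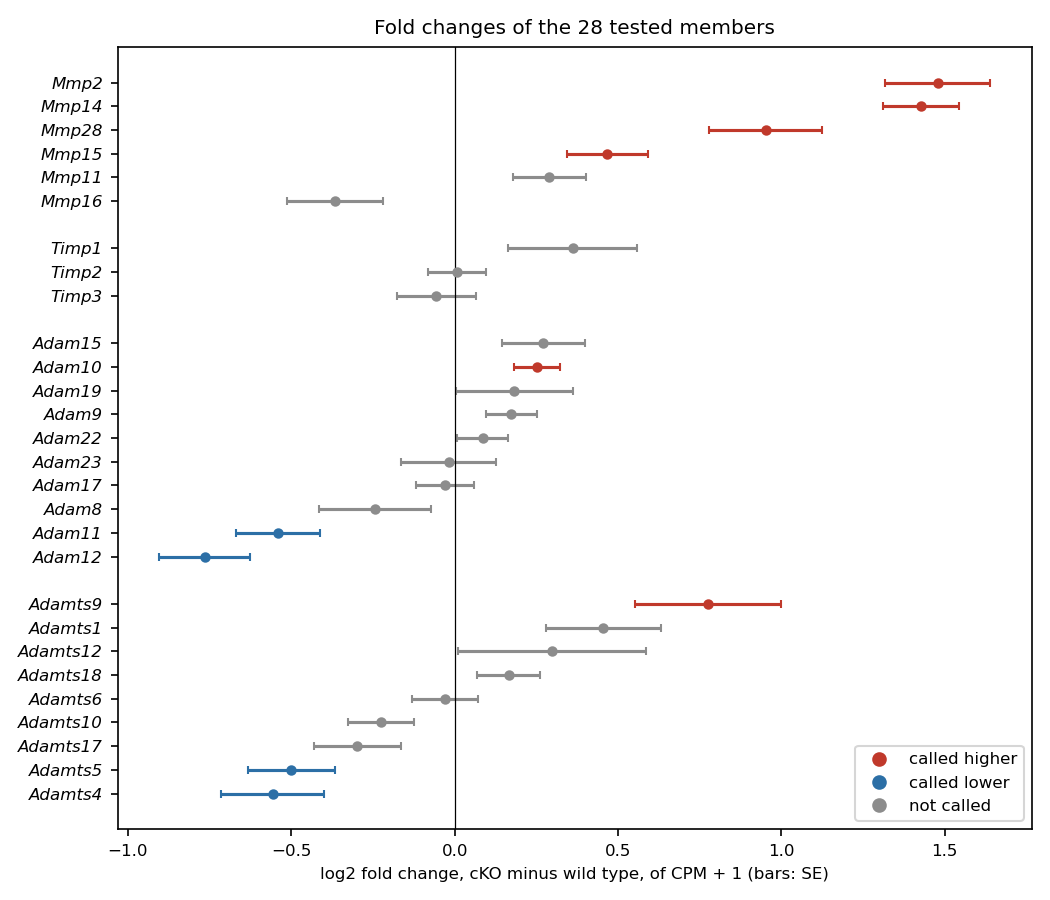
Log2 difference (cKO minus wild type, of CPM + 1) of the 28 tested genes with its standard error from limma, grouped by family; red points were called higher, blue points lower and grey points not called. The 4 called Mmp genes lie at 0.47 to 1.48, while Timp2 lies at 0.01.

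RefSeq's table of start sites held 5 of the 6 members that rose. The 250 bases before each start were read to show which promoter words these genes share. Of all 79 members, 49 matched that table, which uses the build GRCm38.p6. The stretches of Mmp14, Mmp15 and Adam10 are printed 5′ to 3′ on the strand of the gene, cut where the GENCODE M21 transcript begins. Capitals mark the GC box (GGGCGG, the letters that Sp1-type factors read, searched on both strands) and, in Mmp14, the overlapping EGR-type word GCGNGGGCG. All 3 lie on the plus strand, Mmp14 at chr14:54431348-54431597, Mmp15 at chr8:95352046-95352267 and Adam10 at chr9:70678732-70678981.
Mmp14: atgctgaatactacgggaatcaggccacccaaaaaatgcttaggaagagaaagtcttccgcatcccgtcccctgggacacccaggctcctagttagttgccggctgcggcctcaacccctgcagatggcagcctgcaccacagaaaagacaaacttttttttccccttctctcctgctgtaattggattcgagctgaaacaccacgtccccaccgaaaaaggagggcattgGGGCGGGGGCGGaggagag
Mmp15: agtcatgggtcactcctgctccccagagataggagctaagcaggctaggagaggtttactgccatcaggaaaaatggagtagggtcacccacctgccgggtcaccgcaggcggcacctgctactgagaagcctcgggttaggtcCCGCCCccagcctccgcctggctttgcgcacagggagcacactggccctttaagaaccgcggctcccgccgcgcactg
Adam10: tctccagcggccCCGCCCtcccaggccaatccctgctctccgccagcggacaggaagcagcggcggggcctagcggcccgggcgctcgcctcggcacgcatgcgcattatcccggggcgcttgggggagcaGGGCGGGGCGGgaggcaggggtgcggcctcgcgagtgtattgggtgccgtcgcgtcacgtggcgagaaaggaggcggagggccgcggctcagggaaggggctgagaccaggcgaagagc
Over the uncut 250 bases, a GC box was found in 5 of the 5 start sites of members that rose (Mmp14, Mmp15, Mmp28, Adam10 and Adamts9). In Mmp28 the boxes begin 33 and 15 bases before the RefSeq start, where the GENCODE transcript begins 31 bases before it. Neither Mmp28 box thus lies wholly before that transcript. It was found in 66.7% of the 21 start sites of tested members and in 32.7% of all 32851 start sites of the table. None of the 4 members that fell was matched, so these shares hold no comparison with them. Mmp14 held 2 GC boxes, both sharing bases with the EGR-type word, Mmp15 held 1 and Adam10 held 3. The AP-1 word TGANTCA, the classic element of inducible collagenase and stromelysin promoters, was found in 0 of the 5, in 4.76% of the start sites of tested members, in 22.2% of the 54 start sites of all matched members and in 6.75% of all start sites. The TATA word TATAAA was found in 0 of the 5, in 4.76% of tested members' start sites and in 12.4% of all. The EGR-type word was found in 1 of the 5, Mmp14, in 14.3% of tested members' start sites and in 4.70% of all. These are matches of letters, and the words were chosen after the expression values had been seen.

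Mmp14 and Mmp2 showed the largest differences of all tested members. Mmp14 (chromosome 14, 54431612 to 54445364, GRCm38, plus strand) encodes MT1-MMP, a membrane-bound collagenase that also activates the secreted gelatinase pro-MMP2. It measured 18.6, 23.9 and 20.7 CPM in the cKO libraries and 6.68, 6.84 and 8.08 CPM in wild type. Every cKO library stood above every wild-type library, with a ratio of mean CPM of 2.93. The log2 difference was 1.43 (SE 0.116, adjusted p = 1.45e-06). Mmp2 (chromosome 8, 92827291 to 92853420, plus strand) encodes gelatinase A, which cuts type IV collagen and denatured collagens. It measured 6.39, 8.41 and 8.65 CPM in cKO lenses and 1.56, 2.28 and 2.69 CPM in wild type. The groups were again apart, with a ratio of means of 3.59 and a log2 difference of 1.48 (SE 0.162, adjusted p = 1.98e-05). The enzyme and its activator were thus both higher in the cKO group, as were 20.9% of all tested genes. Most tested endothelial, macrophage and mesenchymal markers were higher too, and the part of those cells in the Mmp14 and Mmp2 values was not tested.

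Mmp28 and Mmp15 rose by less. Mmp28 (chromosome 11, 83440768 to 83463071, minus strand) encodes epilysin, a secreted MMP of epithelia. It measured 5.79, 7.77 and 7.33 CPM in cKO lenses and 2.95, 2.28 and 4.29 CPM in wild type, with a log2 difference of 0.95 (SE 0.172, adjusted p = 0.000985). The lowest cKO library lay above the highest wild-type library. On the opposite strand, 12.0% of the Mmp28 exon bases overlap 1700020L24Rik, and the library kit does not mark strand. That neighbour stood at 1.02 ± 0.186 CPM in the knockout libraries and at 0.553 ± 0.183 CPM in the controls, and its part in the Mmp28 value was not tested. Mmp15 (chromosome 8, 95352268 to 95375080, plus strand) encodes a further membrane-type MMP, MT2-MMP. It measured 10.5, 13.5 and 12.9 CPM in cKO lenses and 7.72, 8.42 and 9.68 CPM in wild type, with a log2 difference of 0.47 (SE 0.123, adjusted p = 0.00936), and the groups did not overlap.

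The remaining tested Mmp genes did not pass the test. Mmp11, or stromelysin-3, an MMP that is activated inside the cell by furin, measured 11.9, 12.6 and 11.2 CPM in cKO lenses and 10.9, 8.94 and 8.88 CPM in wild type. Its log2 difference was 0.29 (SE 0.111, adjusted p = 0.0564), and without wild-type replicate 1 the adjusted p was 0.0229. Mmp16, which encodes MT3-MMP, was the only tested Mmp gene with lower values in the cKO group, at 1.30, 1.88 and 1.53 CPM against 2.17, 2.54 and 2.19 CPM. Its log2 difference was -0.37 (adjusted p = 0.0656). By edgeR, which called 39.9% of all tested genes in either direction, Mmp16 passed (adjusted p = 0.0475), as it did with TMM scaling (0.0422). All 6 tested Mmp genes had groups that did not overlap, as did 48.1% of all tested genes.

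Among the genes below the filter, Mmp9 (gelatinase B) measured 0.948, 1.29 and 0.890 CPM in cKO lenses and 0.867, 0.526 and 0.898 CPM in wild type, and the groups overlapped. Mmp17, a membrane-type MMP, measured 0.499, 0.742 and 0.463 CPM against 1.21, 0.438 and 0.499 CPM, which also overlapped. The cluster of 10 Mmp genes on chromosome 9, which holds the interstitial collagenases, the stromelysins, matrilysin, macrophage elastase and enamelysin, gave no tested gene. Of these 10 genes, 9 had 0 reads in all 6 libraries and Mmp8 had 4 reads. Mmp1b shares the most 50-base words of its exons with other genes, 19.7%, and reads of such words could have been dropped. A count of 0 allows a level of up to 0.107 to 0.1497 CPM per library in cKO lenses and 0.260 to 0.299 CPM in wild type (3 reads, counting error only). Every Mmp gene that passed the filter lies outside that cluster.

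**Figure D2:**
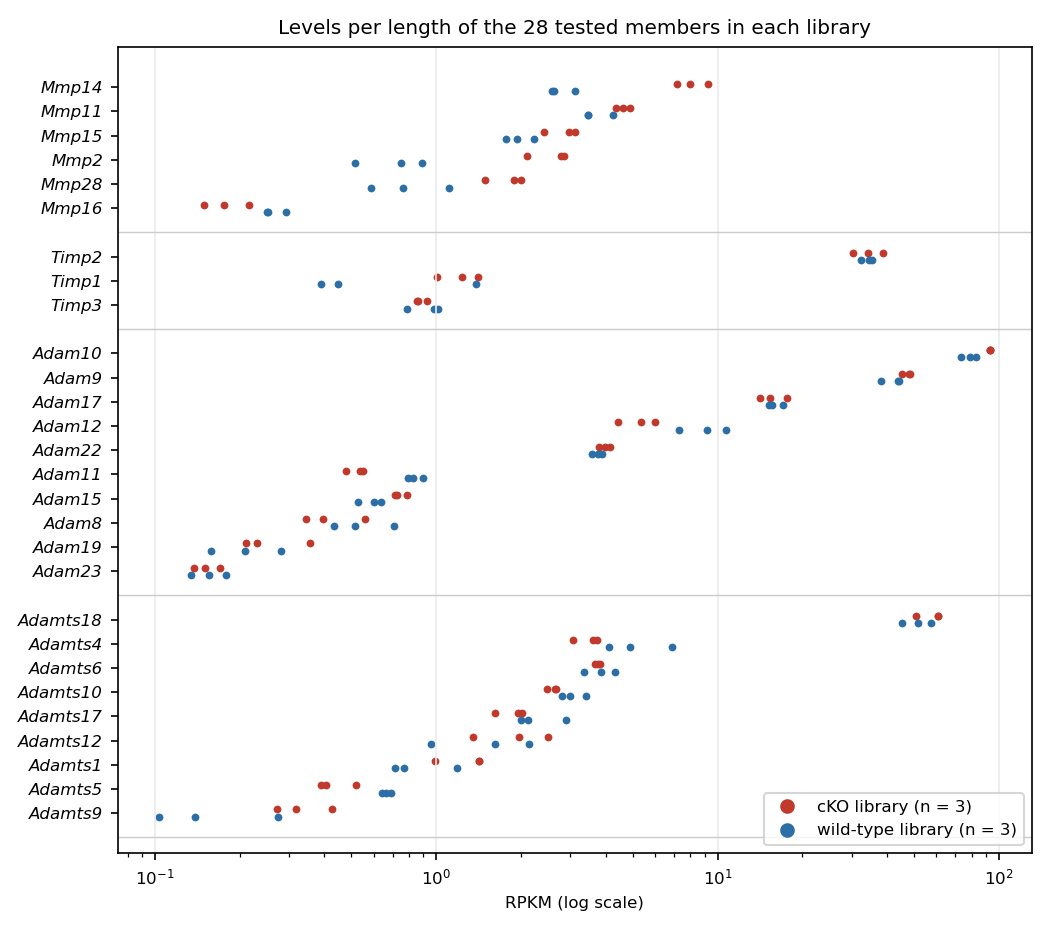
Level of the tested genes per length in each library (RPKM, CPM per kilobase of gene length, log axis), by family, with cKO and wild-type libraries in different colours. Adam10, Adamts18, Adam9 and Timp2 stand above all other members, and the Mmp genes lie below them.

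None of the 3 tested inhibitor genes passed the test. Timp2, which blocks MMPs and also docks pro-MMP2 onto MT1-MMP, was the most abundant Timp transcript. It measured 118, 133 and 150 CPM in cKO lenses and 126, 135 and 138 CPM in wild type, and the wild-type values lay within the cKO range. The log2 difference was 0.01, with a 95% interval of -0.18 to 0.20 (adjusted p = 0.963). Timp3, a TIMP that binds to the matrix and also blocks ADAM17 and aggrecanases, measured 6.99, 7.02 and 7.58 CPM against 6.42, 7.98 and 8.28 CPM. Its log2 difference was -0.06 with an interval of -0.32 to 0.21 (adjusted p = 0.749), and 21.3% of its exon bases overlap Syn3 on the opposite strand, which measured 1.12 ± 0.182 and 0.639 ± 0.263 CPM. Timp1, an inducible TIMP, measured 1.10, 0.890 and 1.25 CPM against 0.347, 1.23 and 0.399 CPM. Wild-type replicate 2 lay within the cKO values, and the other wild-type libraries lay below them. The log2 difference of Timp1 was 0.36 (interval -0.06 to 0.79, adjusted p = 0.169), and without wild-type replicate 2 it was 0.59 (adjusted p = 0.0220). Timp4 had 2 reads in all, both in cKO replicate 3.

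Timp2 made up 93.5 to 94.8% of the Timp total in RPKM in cKO libraries and 93.6 to 96.5% in wild type. Mmp14 made up 38.0 to 39.4% of the Mmp total in cKO lenses against 23.2 to 26.3% in wild type, and Mmp11 20.8 to 24.6% against 29.2 to 38.4%. The ratio of the Timp total to the Mmp total was 1.73, 1.54 and 1.95 in cKO libraries and 3.02, 3.52 and 3.11 in wild type. The ratio of Timp2 to Mmp14 was 4.22, 3.71 and 4.84 in cKO lenses against 12.6, 13.2 and 11.4. These ratios, given with no test, are of RNA levels per deposited length. For 13 of the 28 tested members, that length was within 1% of the GENCODE M21 exon length. For Mmp14 it was 2597 bases, against 5960 in GENCODE, so levels compared between genes depend on the annotation. Per GENCODE exon length, Mmp14 made up 22.8 to 23.8% of the Mmp total in cKO lenses against 12.8 to 14.7%, and Mmp11 stood above it in all 6 libraries. The ratio of the Timp total to the Mmp total was then 2.38, 2.14 and 2.68 in cKO libraries and 3.81, 4.48 and 3.9997 in wild type. The length was changed in this way after the data had been seen.

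**Figure D3:**
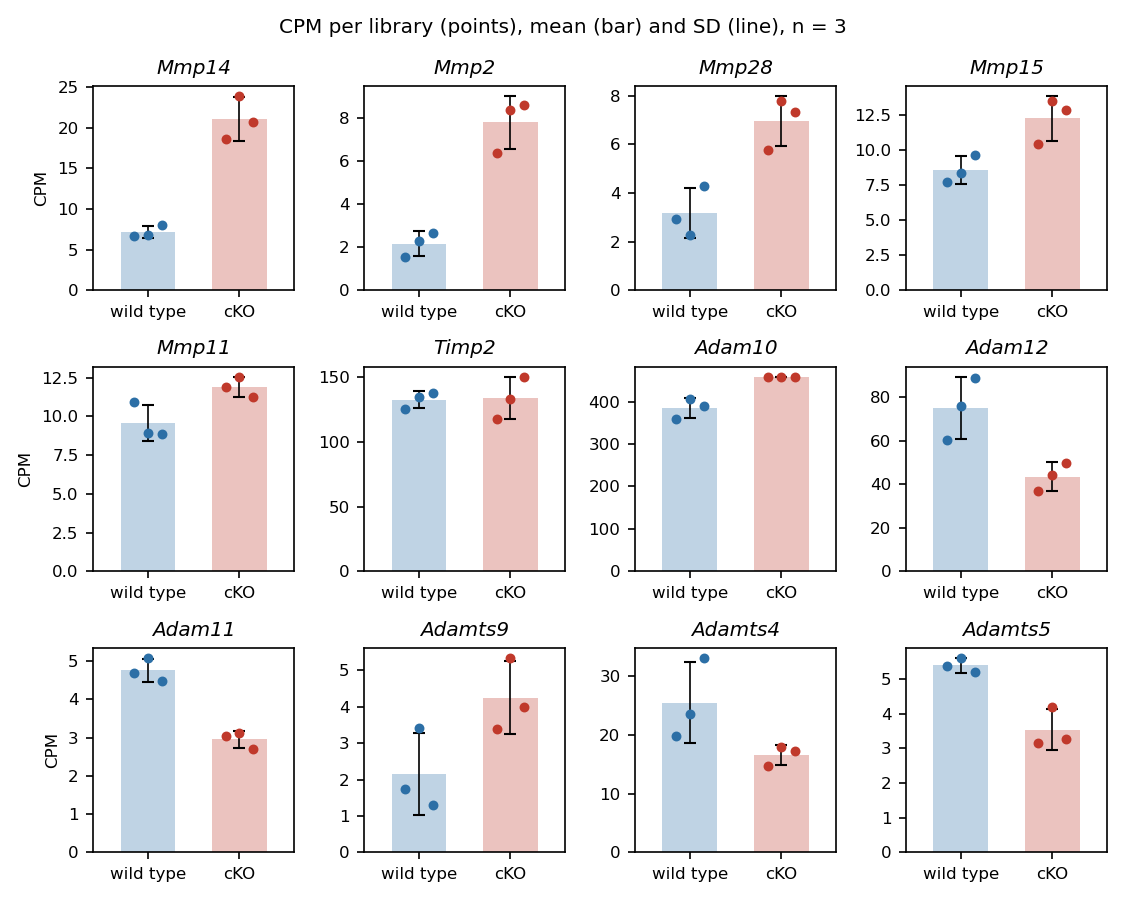
CPM of selected members in each library (points), with the group mean (bar) and SD (line), n = 3 per group and a scale of its own in each panel. Mmp14 and Mmp2 are separated by more than their spread, Timp2 overlaps, and Adam12 lies lower in all 3 cKO libraries.

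The most abundant transcript of the 4 families per length was that of an ADAM gene. Adam10, the main sheddase of Notch receptors and cadherins, was at 93.2 RPKM in cKO lenses and 78.4 RPKM in wild type. Adam9 stood at 47.2 and 41.9 RPKM and Adam17, the sheddase of TNF and of EGF-family ligands, at 15.7 and 16.0 RPKM. Adam10 measured 458, 458 and 457 CPM in cKO lenses and 359, 407 and 389 CPM in wild type, and the groups did not overlap. Its log2 difference was 0.25 (SE 0.0698, adjusted p = 0.0128), a ratio of means of 1.19, and without cKO replicate 3 the adjusted p was 0.0511. Adam9 measured 182, 193 and 194 CPM against 152, 177 and 176 CPM, with a log2 difference of 0.17 that did not pass (adjusted p = 0.0946). Without wild-type replicate 1 the log2 difference of Adam9 was 0.10. Adam17 measured 101, 126 and 110 CPM against 112, 109 and 122 CPM, with a log2 difference of -0.03 (interval -0.22 to 0.16, adjusted p = 0.816). Together these 3 genes made up 92.7 to 93.5% of the Adam total in RPKM in cKO libraries and 89.1 to 90.3% in wild type.

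Adam12 and Adam11 fell. Adam12 (chromosome 7, 133883199 to 134232146, minus strand) encodes a meltrin of mesenchyme and muscle that sheds growth factor precursors. It measured 36.7, 44.1 and 49.7 CPM in cKO lenses and 60.4, 75.7 and 88.9 CPM in wild type. The highest cKO library lay below the lowest wild-type library, with a ratio of means of 0.580 and a log2 difference of -0.77 (SE 0.139, adjusted p = 0.00170). The list of mesenchymal markers was higher in the cKO group, and its relation to the Adam12 value was not tested. Adam11 (chromosome 11, 102761439 to 102780262, plus strand) encodes an ADAM without a catalytic site, known from neurons. It measured 3.04, 3.12 and 2.71 CPM against 4.68, 5.08 and 4.49 CPM, with a log2 difference of -0.54 (SE 0.127, adjusted p = 0.00514), and the groups did not overlap. Adam22, a further ADAM without a catalytic site and a receptor of LGI proteins, measured 46.3, 48.9 and 50.6 CPM against 43.6, 46.0 and 47.6 CPM. Its log2 difference was 0.09 (interval -0.08 to 0.25, adjusted p = 0.418). Sorted by role, 1 of the 7 tested ADAMs with a catalytic site was higher and 1 lower, and 1 of the 3 without one was lower. These shares are near the 36.9% of all tested genes called in either direction. The other 21 Adam genes, mostly of testis and epididymis, gave no tested gene, and 16 of them had 0 reads in every library. Of these, Adam1a shares 77.8% of the 50-base words of its exons with other genes, so reads of it could have been dropped or assigned elsewhere. The same limit holds to a lesser degree for others of the 16, such as Adam26b (36.7%) and Adam20 (34.7%), while Adam18 shares 0%.

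Among the ADAMTS genes, Adamts18 was far above the rest. Adamts18, whose loss is known to cause eye defects, stood at 57.4 RPKM in cKO lenses and 51.3 RPKM in wild type. It measured 286, 344 and 342 CPM against 255, 290 and 323 CPM. The groups overlapped, and the log2 difference of 0.16 did not pass (interval -0.04 to 0.37, adjusted p = 0.200). It depended on single libraries: without wild-type replicate 3 it was 0.25 (adjusted p = 0.0498), without cKO replicate 1 also 0.25 (adjusted p = 0.0541), and without wild-type replicate 1 it was 0.08 (adjusted p = 0.561). Adamts18 made up 77.4 to 78.5% of the Adamts total in RPKM in cKO libraries and 73.5 to 73.9% in wild type.

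Of the 4 tested members of the ADAMTS clade that cleaves versican and aggrecan, 1 was higher and 2 were lower, beside 20.9% and 15.9% of all tested genes. The grouping was written after the values had been seen, and nothing is read from this count. Adamts4 (chromosome 1, 171250421 to 171260637, plus strand), or aggrecanase-1, measured 14.7, 17.9 and 17.3 CPM in cKO lenses and 19.8, 23.5 and 33.1 CPM in wild type. The groups did not overlap, wild-type replicate 3 was the highest, and the log2 difference was -0.56 (SE 0.157, adjusted p = 0.0164). Without cKO replicate 1 it was -0.48 (adjusted p = 0.0606), and without wild-type replicate 3 it was -0.36 (adjusted p = 0.0273). Adamts5 (chromosome 16, 85856173 to 85901828, minus strand), or aggrecanase-2, measured 3.14, 4.205 and 3.27 CPM against 5.38, 5.61 and 5.19 CPM. Its log2 difference was -0.50 (SE 0.133, adjusted p = 0.01003), and every cKO library was below every wild-type library.

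Adamts9 (chromosome 6, 92772699 to 92943492, minus strand), a versican-cleaving enzyme, measured 3.39, 5.34 and 3.99 CPM in cKO lenses and 1.73, 3.42 and 1.30 CPM in wild type. It was the only called member whose groups overlapped, by wild-type replicate 2 and cKO replicate 1. The log2 difference was 0.77 (SE 0.224, adjusted p = 0.0176), and the call was lost without cKO replicate 2 (adjusted p = 0.0687) or without wild-type replicate 1 (0.0519). Adamts1, a further enzyme of the clade, lies on the same strand of chromosome 16 as Adamts5 (85793827 to 85803113). It measured 5.24, 7.52 and 7.55 CPM against 4.08, 3.77 and 6.29 CPM, with a log2 difference of 0.46, opposite in sign to that of Adamts5. It missed the threshold by limma (adjusted p = 0.0574) and passed by edgeR (0.0459). Versican itself, the only substrate of the clade that was tested among 4 hyalectan genes, had a log2 difference of 0.11 (SE 0.330, adjusted p = 0.829).

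Adamts17, whose human counterpart underlies a form of Weill-Marchesani syndrome with a displaced lens, measured 11.7, 14.05 and 14.5 CPM in cKO lenses and 14.5, 15.3 and 20.9 CPM in wild type. The log2 difference was -0.30 by limma (adjusted p = 0.0974), and edgeR called it lower (adjusted p = 0.0439). Without wild-type replicate 3, the highest library, the limma difference of Adamts17 was -0.14 (adjusted p = 0.386). By edgeR, 7 members were higher and 6 lower. Below the filter, Adamts7, which cleaves cartilage oligomeric matrix protein, measured 0.848, 1.43 and 1.14 CPM in cKO lenses against 0.347, 0.614 and 0.299 CPM in wild type. With no filter on low values it was called higher (log2 difference 0.59, adjusted p = 0.0173). Adamts8 measured 0.749, 0.643 and 1.03 CPM against 0.347, 0.526 and 0.1995 CPM. Adamts20 measured 0.749, 1.29 and 0.925 CPM against 1.04, 0.877 and 0.399 CPM, and Adamts3 0.948, 0.792 and 0.890 CPM against 0.434, 1.05 and 0.599 CPM. The groups of Adamts20 and of Adamts3 overlapped. Adamts3 is 1 of the 3 procollagen N-proteinases, none of which passed the filter.

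Of the 51 members below the filter, 26 had 0 reads in every library, 7 had 1 to 9 reads in all and 18 had 10 or more. The 7 other tested members, which no rule named, were Adam15, Adam8, Adam19, Adam23, Adamts6, Adamts10 and Adamts12. Their mean levels ran from 1.54 CPM (Adam19 in wild type) to 18.5 CPM (Adamts6 in wild type), and their adjusted p-values from 0.0987 (Adamts10) to 0.933 (Adam23). Adamts12 varied most within a group, at 5.98, 10.1 and 13.4 CPM in wild type.

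The other genes of the protease system were described from lists. Over all tested genes 20.9% were called higher and 15.9% lower, and no count of calls is read as a result about a list. Both tested genes of plasminogen activation were higher, of 8 listed. Plat, which encodes tissue plasminogen activator, measured 23.2, 23.0 and 23.5 CPM in cKO lenses and 6.68, 6.84 and 7.08 CPM in wild type. Its groups were far apart relative to their spread, and the log2 difference was 1.62 (SE 0.0939, adjusted p = 5.98e-08). Serpine2, which encodes protease nexin-1, an inhibitor of plasminogen activators and thrombin, had a log2 difference of 0.55 (SE 0.147, adjusted p = 0.009997). Plau, Plaur and Plg did not pass the filter. The protease and the inhibitor of this list both rose.

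Among 11 tested of 13 cathepsins and cystatins, lysosomal proteases and their inhibitors, 3 were higher and 2 lower, beside 20.9% and 15.9% of all tested genes. Ctsl rose from 83.9 ± 4.83 to 145 ± 6.46 CPM (log2 difference 0.79), Ctsc from 8.22 ± 1.08 to 17.5 ± 1.68 CPM (1.01) and Ctss, a cathepsin of macrophages and other antigen-presenting cells, from 0.715 ± 0.327 to 3.68 ± 0.379 CPM (1.46). Ctsz fell from 137 ± 6.44 to 104 ± 2.06 CPM, a log2 difference of -0.39.

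Of 13 tested activators and membrane partners, 2 were higher and 5 lower, beside 20.9% and 15.9% of all tested genes. TMM scaling gave 2 and 7. Furin, the protease that removes the prodomain of MT-MMPs and ADAMs, had a log2 difference of -0.06 (adjusted p = 0.563). Pcsk7, a related convertase, was lower (-0.50, adjusted p = 0.00174), as was Bsg, or basigin, a surface protein known to induce MMPs (-0.29, adjusted p = 0.00348). The iRhoms, which escort ADAM17 to the surface, went opposite ways: Rhbdf1 was higher (0.45, adjusted p = 0.00262) and Rhbdf2 lower (-0.50, adjusted p = 0.00415). The ligands that ADAM17 releases did so too. Hbegf rose from 2.77 ± 0.758 to 5.34 ± 0.521 CPM (log2 difference 0.77, adjusted p = 0.00200), and Tgfa fell from 2.33 ± 0.121 to 1.14 ± 0.132 CPM (-0.64, adjusted p = 0.00329). These were the 2 tested ligands of 7 listed.

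Adamtsl4, which encodes an ADAMTS-like protein without a protease domain and is linked to lens dislocation in humans, was lower. It measured 39.6, 52.0 and 61.7 CPM in cKO lenses and 78.9, 87.0 and 93.6 CPM in wild type, with a log2 difference of -0.77 (SE 0.136, adjusted p = 0.00147). The other 2 tested ADAMTS-like genes of 6 listed were not called. Of the 3 tested HtrA genes, Htra3 was lower (-0.27, adjusted p = 0.00722) and Htra1 higher (0.53, adjusted p = 0.0452). The call of Htra1 was not made in 12 of 16 alternatives, edgeR among them (0.0682). These 12 include the filter of a mean of at least 5 CPM, under which Htra1 was not tested. The 2 tested procollagen proteases and enhancers, Bmp1 and Pcolce, were not called (adjusted p = 0.738 and 0.136).

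**Figure D4:**
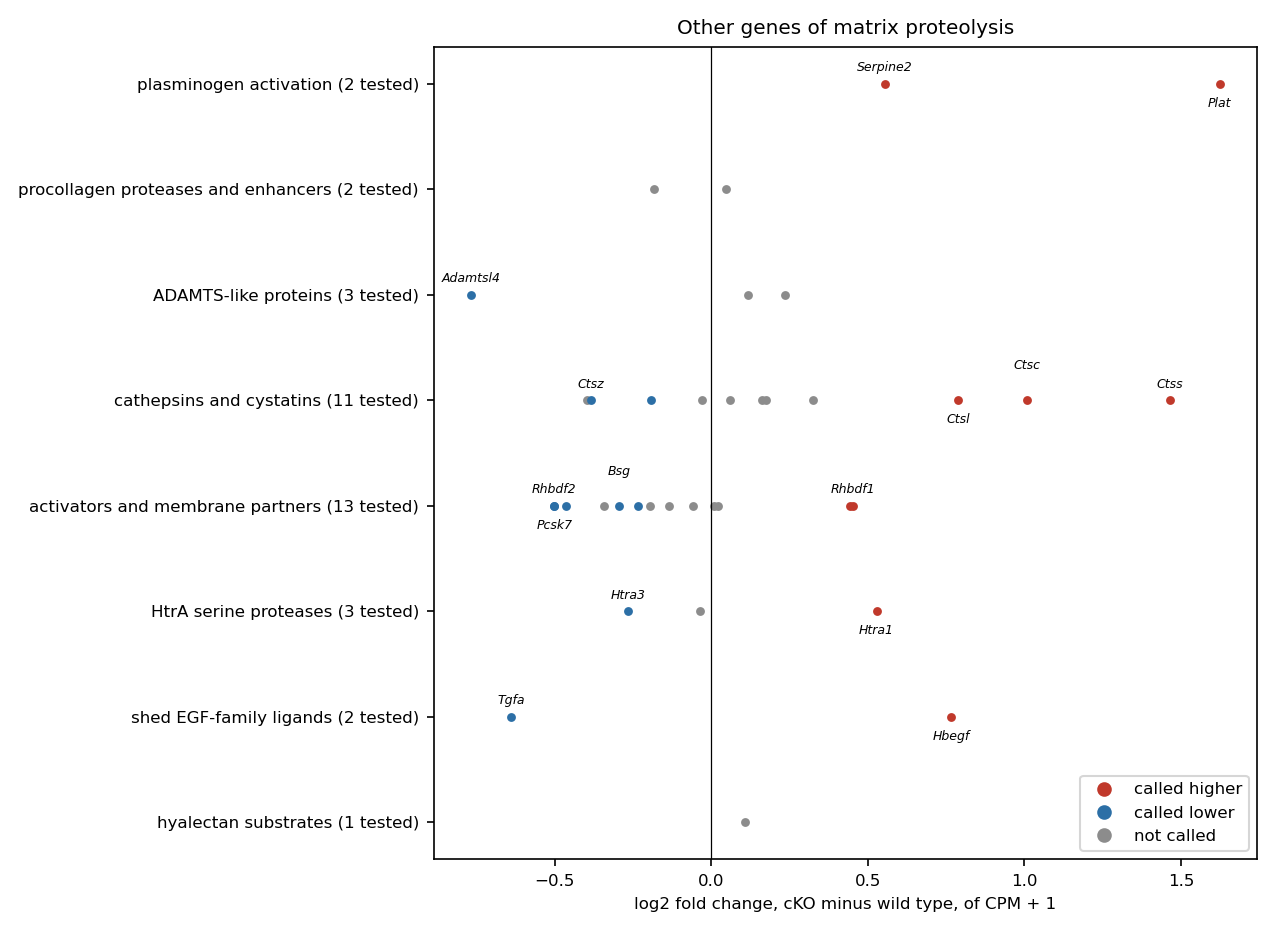
Log2 difference (cKO minus wild type, of CPM + 1) of the tested genes of the 8 lists of the protease system; each point is 1 gene, red called higher, blue lower, grey not called, and up to 4 called genes per list are named. Plat lies farthest to the right, at 1.62, and Adamtsl4 farthest to the left, at -0.77.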

How the data were processed

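Each library was deposited by the authors as gene-level CPM and RPKM, per the file headers. Per the submitters' processing notes the build was GRCm38 and edgeR was used; aligner and counter: not given in the sources used here. Per the labels' protocols, libraries were unstranded TruSeq v2, single-end. From the deposited CPM, whole reads were recovered for 100% of values (within 0.02 reads), and 0 sample columns were left out. Gene coordinates came from GENCODE M21.

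A gene was tested where 3 or more libraries held 1 CPM or more (11941 genes). The test was run with limma 3.58.1 (R 4.3.3, trend and robust settings, group as the only term) on log2(CPM + 1), with Benjamini-Hochberg adjustment over all of them. A fold change on this scale understates that of low genes. Alternatives were TMM and RLE scaling, other filters, a pseudocount of 0.1, edgeR 4.0.16, DESeq2 1.42.0, a replicate block, a gene length correction and leaving out each library. edgeR was run first with robust dispersions and then with its default; the default is the edgeR test reported here, and the robust run is an alternative added after seeing the data.

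Members and gene lists were chosen with earlier results of these data known; the grouping by role was written after member values had been seen. Named were Itgb1, the Timp genes, members called by limma or edgeR, the 10 members highest in RPKM, members below the filter reaching 1 CPM, and up to 4 called genes per list. The labels call the replicates biological and say that lenses were pooled. The script was tested on simulated data.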

Additional observations from a re-analysis of the deposited data

How the results depend on the processing

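The 10 called members kept direction and call in 152 of 156 values under the alternatives, and the 4 exceptions are the calls of Adam10, Adamts4 and Adamts9 given above; none turned direction. The 18 members not called passed in 26 of 282 values. Members higher (6) became 11 with the replicate block; members lower (4) became 2 with a mean of at least 5 CPM, where 18 members were tested, 6 with TMM or RLE scaling, and 7 by edgeR with robust dispersions, which added Adamts10 (adjusted p = 0.0494). Mmp genes lower (0) became 1, Mmp16, with TMM or RLE scaling, either edgeR run or the length correction. Adam genes higher (1) became 2 with the block, and Adam genes lower (2) became 1 with a mean of at least 5 CPM. Adamts genes higher (1) became 2 with no filter, either edgeR run or the length correction, 0 under the 5 CPM filter and 4 with the block; Adamts genes lower (2) became 1 with that filter and 4 by edgeR with robust dispersions. Leaving out 1 library gave 5 to 8 members higher, 3 to 4 lower, 0 to 1 Timp and 0 to 1 Adam genes higher, and 0 to 3 Adamts genes higher and 1 to 2 lower. With a mean of at least 5 CPM, 4 members were higher, 3 of them Mmp genes. Mmp2, Adam11, Adamts5 and Adamts9 lay below a mean of 5 CPM and were not tested under that filter, which accounts for the moves given for it. The cause of the other moves was not tested.

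Over all genes 2499 were higher and 1904 lower, against 2413 and 2363 with TMM scaling and 2378 and 2387 by edgeR. The replicate numbers were not taken as pairs. Same-numbered deviations correlated at 0.33, -0.03 and 0.15, and not every sample correlated best with its own number. With 3 libraries per group these correlations depend on one another and cannot settle whether the samples were paired. With the block 2916 genes were higher and 2249 lower. Depth limits low genes: 3 reads are 0.107 to 0.299 CPM.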
